A study of Homo sapiens with 9 samples.

Results

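The clustered protocadherins are cell-surface cadherins whose genes lie side by side in an alpha, a beta and a gamma cluster on chromosome 5. Their transcripts were described in HT-29 cells, a human colon cancer line, after exposure to 5-Aza (5-aza-2'-deoxycytidine), an inhibitor of DNA methyltransferases. Members were chosen by symbol alone: every gene name starting with PCDHA, PCDHAC, PCDHB, PCDHGA, PCDHGB or PCDHGC followed by its number was taken, which gave 57 of the 23284 gene symbols in the files. The alpha cluster had 15 members, the beta cluster 19 and the gamma cluster 23. No member had a repeated entry that needed summing.

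RNA was sequenced from 9 cultures, 3 each of vehicle-treated cells (dimethyl sulfoxide, 0 µM), cells given 5 µM 5-Aza and cells given 10 µM 5-Aza. All 9 came from this 1 cell line, carried no engineered allele and were grown in the same medium with serum. Each library was read as 100 bp paired ends of RNA extracted from whole cultures. The treatment lasted 5 days.

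Each alpha or gamma gene supplies 1 long variable exon that encodes the extracellular cadherin repeats and the membrane span, and this exon is spliced to constant exons shared by the whole cluster that encode a common cytoplasmic end. Beta genes have no such constant exons, so each of their proteins ends in its own short tail. Each variable exon has its own promoter, and a neuron switches on a few of them through the insulator protein CTCF, the cohesin ring and loss of promoter DNA methylation. The resulting set of proteins binds itself on a facing cell and gives neurons a surface identity. The last alpha and gamma variable exons, the C-type exons, differ from the others in sequence and are used more widely. In epithelial tumours the clusters are known as a long stretch of promoter methylation.

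In the GRCh37 (hg19) annotation, all 3 clusters lie on the plus strand of chromosome 5. The alpha cluster spans chr5:140165721-140391932, the beta cluster chr5:140430959-140628933 and the gamma cluster chr5:140710081-140892544. All 15 alpha genes share 3 constant exons of 2869 nt together (chr5:140358534-140391932), which is 53.1% of a median alpha transcript of 5401 nt. In the gamma cluster, 22 of 23 genes share 3 constant exons of 2177 nt (chr5:140874374-140892542), 45.6% of a median transcript of 4775.5 nt. The exception is the single-exon pseudogene PCDHGB8P. Reads from a constant exon cannot be assigned to 1 gene, so each alpha and gamma value rests in part on how such reads were divided among the genes of its cluster. With 1 canonical transcript per gene, 17 of the 19 beta genes have a single exon, and PCDHB17, PCDHB18 and PCDHB19P are annotated as pseudogenes.

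Most promoters of each cluster, but not all, carry that cluster's form of a short conserved sequence, known as the conserved sequence element, around the letters CGCT. It is shown here because it holds a CpG, the site that DNA methyltransferases methylate, just upstream of the transcription starts. RefSeq windows of 300 bases (250 before and 50 after each start, GRCh38.p14) were found for 47 of the 57 members, 52 windows in all, since some genes have several starts. The exact letters TGTCGCT were searched on both strands and found in 10 of 13 alpha members with a window, TGGCGCT in 13 of 14 beta members and GCCGCTG in 12 of 20 gamma members. Of 35116 windows of all genes, 1.76% held the first, 4.08% the second and 11.1% the third, so the alpha and beta forms are rare and the gamma form less so. The first form was also in 1 beta and 3 gamma members and the second in 3 gamma members. The letters CGCT, contained in all 3 forms, were in 46 of 47 members but also in 70.0% of all windows.
Stretches of 23 bases on the plus strand of GRCh38.p14 follow for members described below, with the motif in capitals and 8 bases on either side. The alpha members are first:
PCDHA10, chr5:140855846-140855868: ccaccggaTGTCGCTgtcgtcca
PCDHA12, chr5:140875249-140875271: tcacatgaTGTCGCTctacactc
The beta members share most bases around the motif as well:
PCDHB4, chr5:141121728-141121750: acgcagggTGGCGCTgcaggcta
PCDHB7, chr5:141172571-141172593: acgcaaggTGGCGCTgctggcta
PCDHB10, chr5:141192304-141192326: ccacacggTGGCGCTgcaggcta
PCDHB14, chr5:141223268-141223290: acacatggTGGCGCTacaggata
PCDHB15, chr5:141245319-141245341: acgcatggTGGCGCTgcaggcta
The gamma members, of which PCDHGB4 and PCDHGB5 are identical over the whole stretch, are:
PCDHGA10, chr5:141412937-141412959: ctctgagcGCCGCTGttcaccta
PCDHGB4, chr5:141387623-141387645: ctctgggcGCCGCTGttggccaa
PCDHGB5, chr5:141397869-141397891: ctctgggcGCCGCTGttggccaa
PCDHGB6, chr5:141407930-141407952: ctctgggcGCCGCTGtcggccag
PCDHGC3, chr5:141475886-141475908: ctctgtgtGCCGCTGtcggccaa
PCDHGC4, chr5:141484958-141484980: gcccgggaGCCGCTGtctgccaa

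The motif began a median of 54.5 bases before the start in alpha members, 64.0 in beta members and 66.0 in gamma members. It lay 30 to 100 bases before the start in 10 of 10 alpha, 11 of 13 beta and 12 of 12 gamma members that held it. A match to these letters alone does not show that a promoter carries the conserved element. The matches are a description of these letters and show neither binding nor methylation, which was not measured in the data used here.

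Promoters differed between subfamilies in their number of CpG sites. The median over all promoters was 14 CpG per 300-base window (range 0 to 77). The PCDHA windows had a median of 7 (3 to 9), the beta windows 7.5 (5 to 12) and the PCDHGA windows 5 (2 to 12), all below that of promoters as a whole. The 11 PCDHGB windows had a median of 13 (7 to 25). PCDHGB1, PCDHGB4, PCDHGB5 and PCDHGB6 each entered it with 2 starts, which raised it. Their first starts had 8, 13, 14 and 16 CpG and their second starts 11, 17, 19 and 25. The C-type windows were richer, with 27 in PCDHAC1, 15 in PCDHAC2, 18 in PCDHGC3 and 23 and 24 at the 2 starts of PCDHGC4. PCDHGC5 had no window. The window of PCDHB15 and that of PCDHGC3, the beta and gamma members with the highest means over all 9 libraries, are printed to show this contrast, with every CpG in capitals. PCDHB15 has 6 of them:
PCDHB15, chr5:141245145-141245444: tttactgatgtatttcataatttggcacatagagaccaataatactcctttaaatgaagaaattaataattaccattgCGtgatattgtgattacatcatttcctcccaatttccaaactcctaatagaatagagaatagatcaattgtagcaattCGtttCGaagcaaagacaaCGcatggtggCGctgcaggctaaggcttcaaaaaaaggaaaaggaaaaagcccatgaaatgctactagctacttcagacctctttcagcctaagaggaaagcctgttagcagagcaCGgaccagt
PCDHGC3 has 18:
PCDHGC3, chr5:141475716-141476015: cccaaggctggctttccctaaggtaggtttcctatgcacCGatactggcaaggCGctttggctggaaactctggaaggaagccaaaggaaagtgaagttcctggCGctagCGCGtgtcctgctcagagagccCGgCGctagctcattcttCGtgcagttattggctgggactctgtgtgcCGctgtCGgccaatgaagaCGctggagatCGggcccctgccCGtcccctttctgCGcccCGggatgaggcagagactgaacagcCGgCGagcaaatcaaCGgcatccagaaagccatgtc

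**Figure D1:**
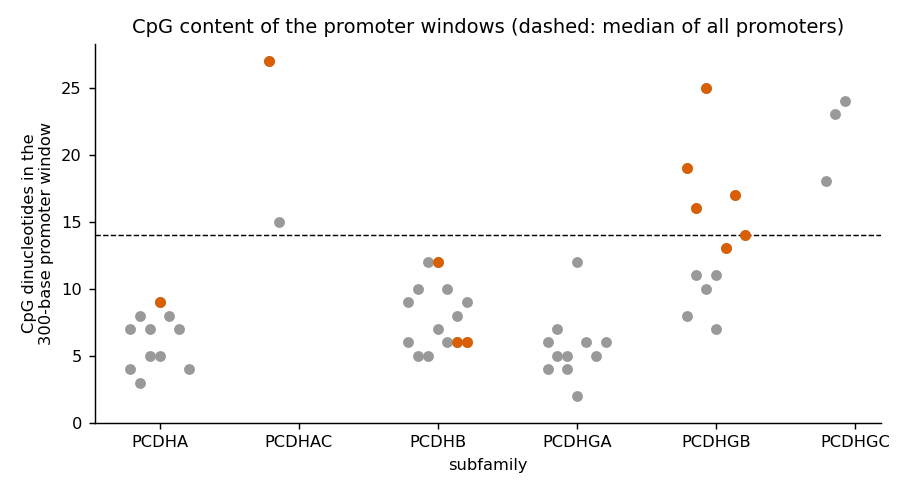
Number of CpG sites per 300-base RefSeq promoter window (y axis) by subfamily (x axis), 1 point per window, with the median of all promoters (14) as a dashed line and members called higher at 5 µM than at 0 µM in orange. PCDHA, PCDHB and PCDHGA windows lie mostly below the line and the C-type windows above it. The 10 members without a window are not drawn, among them the called members PCDHA3 and PCDHB6 and the C-type gene PCDHGC5.

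The files give FPKM, fragments per kilobase of transcript scaled to the mapped fragments of the library, as computed by the authors, on a scale whose total was 3.69e9 to 5.91e9 per library. Because FPKM is per length, members can be ranked against each other, within the limit set by the shared exons. The number of fragments behind a value was estimated from the spacing of the low values in each library. On this estimate 1 fragment on a 3000-nt transcript was worth 106 to 273 FPKM, and a library held 1.20e7 (10 µM replicate 1) to 3.28e7 fragments over all genes. None of 12 housekeeping genes was at 0 in any library. All 11 colon epithelium markers, such as keratins and CDX genes, were measured in the 9 libraries. Their summed level was 9.03e7 to 1.09e8 FPKM in control cells, 3.77e7 to 4.24e7 at 5 µM and 2.96e7 to 5.21e7 at 10 µM.

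The gamma cluster carried most of the clustered protocadherin signal in HT-29 cells. Its 23 members summed to 122687, 125945 and 143264 FPKM in the control libraries, to 185647, 149898 and 177509 at 5 µM and to 136416, 137502 and 97433 at 10 µM. Means were 130632 ± 11060.4, 171018 ± 18738 and 123784 ± 22827 (SD, n = 3), so that all 5 µM sums lay above all control sums while 2 of the 10 µM sums lay within the control range and replicate 3 lay below it. The ratio of means was 1.31 for 5 µM over 0 µM and 0.948 for 10 µM over 0 µM, and the latter was 1.12 with the median-of-ratios scaling.

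The beta cluster was lower, and the change of its sum came mostly from 1 gene, PCDHB15. Its 19 members summed to 9755, 8497 and 8489 FPKM in control cells, 22690.4, 15297 and 19969 at 5 µM and 13007, 15918 and 15826 at 10 µM. Means were 8913 ± 729, 19319 ± 3739 and 14917 ± 1655 (SD, n = 3), a ratio of 2.17 for 5 µM and 1.67 for 10 µM over 0 µM. Every treated library lay above every control library, and the 5 µM and 10 µM libraries overlapped. Without PCDHB15, a sum added after the values were seen, the other 18 members came to 7257, 6636 and 8118 FPKM in control cells, 10751, 7019 and 8676 with 5 µM and 6006, 10030.5 and 9287 with 10 µM. The 3 doses then overlapped, with means of 7337 ± 745, 8815 ± 1869.9 and 8441 ± 2141 (SD, n = 3) and ratios of 1.20 for 5 µM and 1.15 for 10 µM over 0 µM.

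The alpha cluster was the lowest. Its 15 members summed to 1641, 2875 and 1389 FPKM in control cells, 2874, 4795 and 3267 at 5 µM and 2163, 3426 and 3227 at 10 µM, with means of 1968 ± 795, 3645 ± 1015 and 2939 ± 679 (SD, n = 3). The highest control library (2875) was above the lowest 5 µM library (2874) and the lowest 10 µM library (2163). In this bulk RNA, fewer cells with a transcript and less RNA per cell cannot be told apart. With 3 libraries against 3, an exact two-sided permutation test cannot give a p below 0.1, which is its value for each pair of groups that did not overlap.

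**Figure D2:**
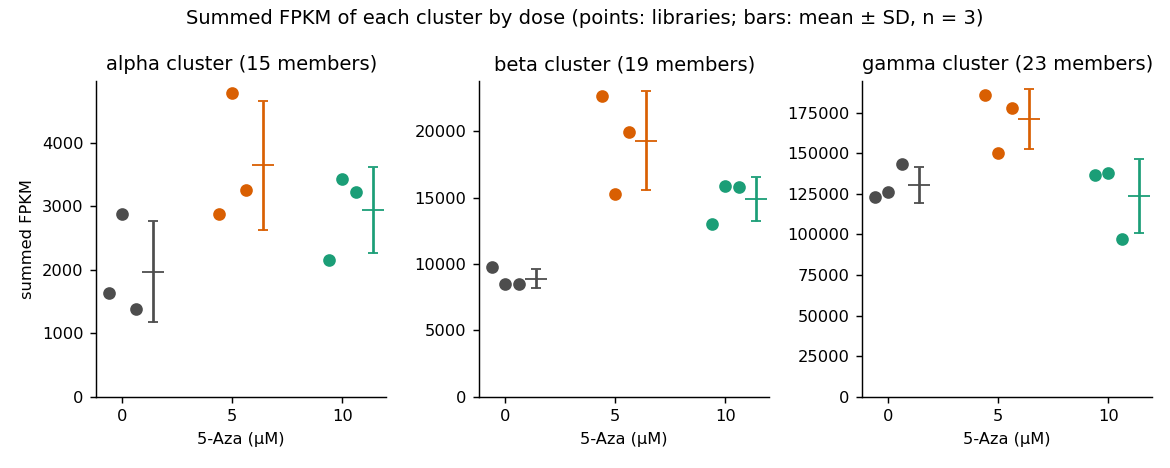
Summed FPKM of the alpha (15 genes), beta (19) and gamma (23) clusters at 0, 5 and 10 µM 5-Aza; points are libraries and bars the mean ± SD (n = 3). The beta sums of all treated libraries, PCDHB15 included, lie above the control sums, and the gamma sums rise above control at 5 µM only.

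The gamma share of all clustered protocadherin FPKM was 91.5% to 93.6% in control libraries, 87.9% to 88.4% at 5 µM and 83.6% to 90.0% at 10 µM. The beta share moved the other way, from 5.54% to 7.28% in control libraries to 9.0% to 10.7% at 5 µM and 8.58% to 13.6% at 10 µM. Within the total, the 8 PCDHGB genes took 14.7% to 20.0% in control libraries and 20.5% to 23.1% at 5 µM, without overlap, and 16.2% to 22.6% at 10 µM.

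Depth behind these values differed by library and by cluster. Over all genes, control libraries held an estimated 1.60e7, 2.41e7 and 2.99e7 fragments. Libraries at 5 µM held 2.80e7, 2.92e7 and 3.28e7, and those at 10 µM held 1.20e7, 2.60e7 and 1.70e7. Fragment numbers are not scaled for library depth, so those of different doses are not directly comparable. Summed over the 23 gamma members, the estimate was 724 to 1805 fragments per control library and 2016 to 2694 per 5 µM library. The 19 beta members held 46.3 to 89.1 fragments in a control library and 168 to 271 in a 5 µM library. The 15 alpha members held only 11.4 to 29.9 and 47.6 to 76.0. Of the alpha values, 86 of 135 were under 0.5 fragments, and 9 of 15 alpha members stayed under 5 fragments in every library. Of the beta values, 54 of 171 were at 0 or under 0.5 fragments, and 8 of 19 members stayed under 5. All 23 gamma members reached 10 fragments in at least 1 library, against 7 beta and 3 alpha members. Alpha values, with the fewest fragments, are the least certain. Their spacing also gave whole fragments more often with the length of the first exon alone than with the full transcript. With the first exon 22 of 47 values lay within 0.1 of a whole number, against 5 of 49. Counted with the first exon, alpha fragments would be fewer by a factor of 2.24. Gamma values were not checked in this way. Some of them may be overstated too, as PCDHGA1 had 2.02 estimated fragments in control replicate 1 and 4.04 and 6.07 in 10 µM replicates 1 and 3.

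**Figure D3:**
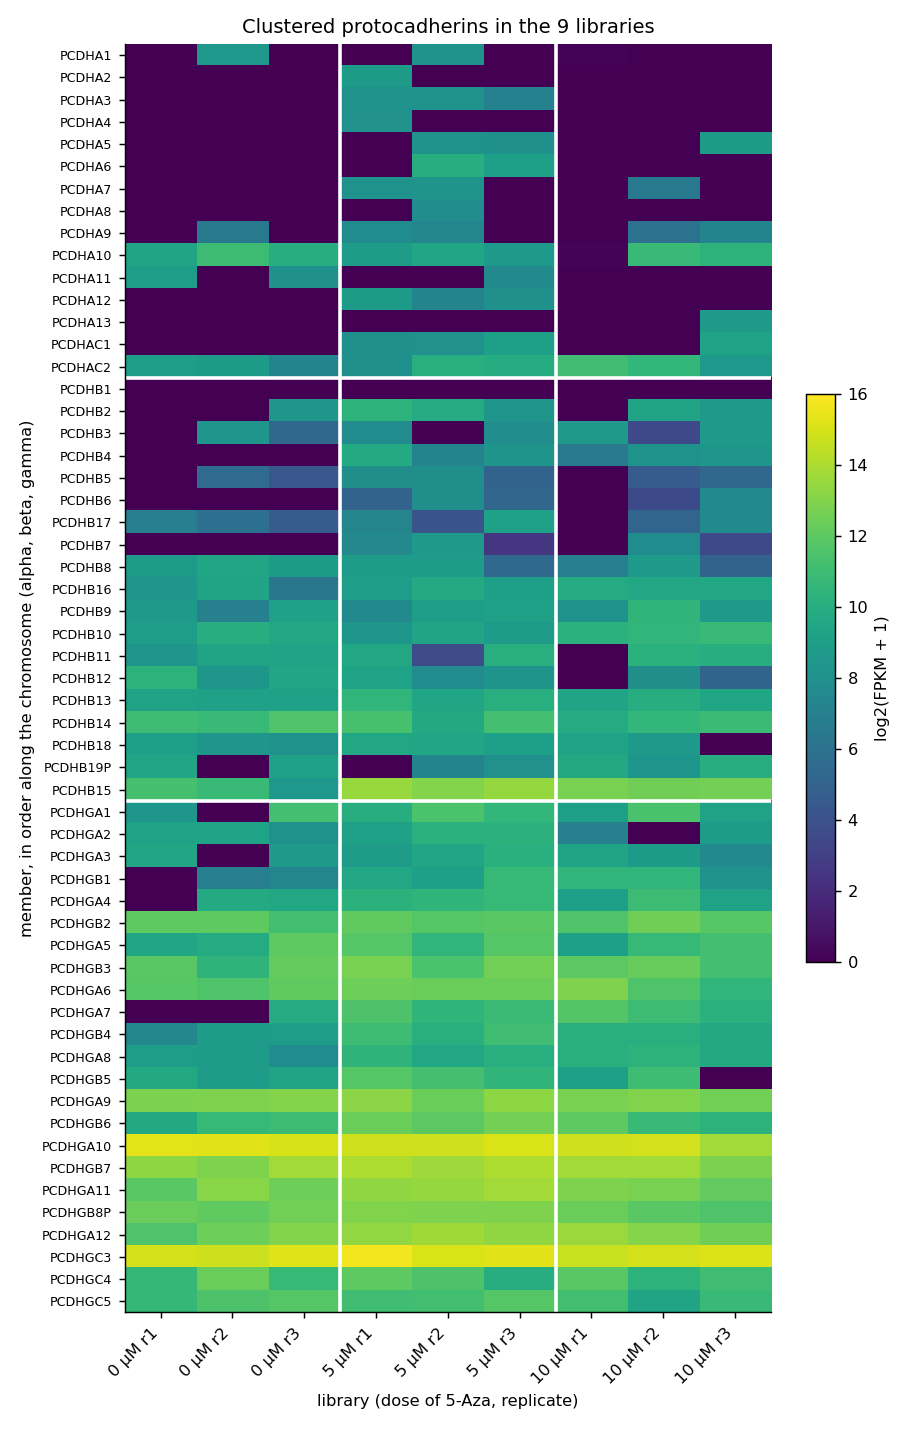
log2(FPKM + 1) of the 57 members (rows, in chromosome order) in the 9 libraries (columns, by dose and replicate). The gamma rows are filled in nearly all libraries, while many alpha rows are near 0 in most libraries and several of them are filled at 5 µM only.

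Each pair of doses was compared with limma across all genes that reached 10 FPKM in at least 1 library of the pair, on log2(FPKM + 1). A gene was called higher or lower where the Benjamini-Hochberg adjusted p was at most 0.05 and the log2 difference was over 1 in size. Between 5 µM and 0 µM, 55 of the 57 members were tested and 10 were called higher (18.2%), against 14.1% of all 20051 genes tested. None was called lower, against 2.17% of all genes, and 17 members had an unadjusted p under 0.05. By cluster, 3 of 14 alpha, 4 of 18 beta and 3 of 23 gamma members tested were called. The groups did not overlap in 20 members, always with the 5 µM libraries higher, where 29.4% of all genes tested did not overlap and were higher and 23.2% were lower. The log2 difference was above 0 in 44 members and below 0 in 11, where 57.1% of all genes tested were above 0. Members under 1 FPKM in every control library passed the filter only through 5 µM libraries, so they could only be above 0. They include the called members PCDHA3, PCDHA12, PCDHAC1, PCDHB4, PCDHB6 and PCDHB7. The filter itself thus favoured them, and the counts of members called, not overlapping or above 0 are a description. The median was 1.08 over the members, 2.89 in alpha, 0.82 in beta and 0.97 in gamma, beside 0.14 over all genes. The alpha median is set largely by the pseudocount and by values in single libraries. PCDHA2, at 2.90 (adjusted p = 0.417), had 413 FPKM in 5 µM replicate 1 and under 1 in all other libraries. The ratio of the alpha sums between 5 µM and 0 µM was 1.85, and these sums overlapped.

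Among the gamma members, PCDHGC3 (chr5:140855514-140892544, GRCh37) is a C-type gene with the highest mean over all 9 libraries, though below PCDHGA10 in the mean of control libraries. Its mean FPKM over the 9 was above 55.2% of all symbols. Its FPKM was 32362, 28251 and 38149.6 in control libraries, 54951, 34664 and 40016 at 5 µM and 25683, 32702 and 36074 at 10 µM. These doses overlapped, and the log2 difference between 5 µM and 0 µM was 0.38 ± 0.20 (SE, adjusted p = 0.186). PCDHGA10 (chr5:140792554-140892542) came next and was 1 of 2 gamma members below 0 in this comparison. Its FPKM was 41145, 40581 and 33257 in control libraries, 28894, 29626 and 34439.9 at 5 µM and 29182, 30365 and 14074 at 10 µM. Its range at 5 µM overlapped that of control libraries, while all 3 libraries at 10 µM were below them. The log2 difference was -0.30 ± 0.13 (SE, adjusted p = 0.119) between 5 µM and 0 µM and -0.72 ± 0.32 (SE, adjusted p = 0.152) between 10 µM and 0 µM. Together, PCDHGC3 and PCDHGA10 made up 40.2% to 59.9% of the gamma sum in a library.

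The 3 gamma members called higher at 5 µM were B-type genes that follow each other among the B-type genes of the cluster, PCDHGB4, PCDHGB5 and PCDHGB6, all of lower level than PCDHGC3. They start at 140767265, 140777514 and 140787588 on chromosome 5 (GRCh37) and end with the shared exons at 140892542. PCDHGB6 had an FPKM of 847, 1683 and 1984 in control libraries, 5353, 4077 and 6518 at 5 µM and 4133, 1772 and 1294 at 10 µM. All 5 µM libraries were above all control libraries, with a log2 difference of 1.88 ± 0.44 (SE, adjusted p = 0.0173). The 10 µM libraries ran from within the control range to the lower end of the 5 µM range. The estimated fragments of PCDHGB6 were 5.08, 15.2 and 25.4 in control libraries and 77.3, 55.9 and 101 at 5 µM.

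PCDHGB4 had an FPKM of 173, 459 and 487 in control libraries, 2090.0, 1062 and 2156 at 5 µM and 1091, 1079 and 815 at 10 µM. Treated libraries were all above the control libraries. The log2 difference between 5 µM and 0 µM was 2.31 ± 0.64 (SE, adjusted p = 0.0318), and that between 10 µM and 0 µM was 1.54 ± 0.75 (SE, adjusted p = 0.184). PCDHGB5 had 849, 450.0 and 636 FPKM in control libraries, 3460.5, 2527 and 1428 at 5 µM and 535, 2072 and 0 at 10 µM. It was above control in each 5 µM library, with a log2 difference of 1.89 ± 0.53 (SE, adjusted p = 0.0318), and listed at 0 in 1 library at 10 µM. These gamma calls were sensitive to single libraries. Without 5 µM replicate 1 or 3, the adjusted p was 0.0597 or 0.0682 for PCDHGB6 and 0.0961 or 0.0994 for PCDHGB4. For PCDHGB5 it was 0.0518 to 0.0948 without control replicate 2 or 3 or without 5 µM replicate 1 or 2, and 0.561 with all 9 libraries in one fit.

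PCDHGB7, the third-highest gamma member, had 10091, 7662 and 14256 FPKM in control libraries, 16949.6, 12735 and 16925 at 5 µM and 13929.8, 14355 and 7258 at 10 µM. Its 5 µM libraries overlapped the control libraries, and the log2 difference was 0.58 ± 0.27 (SE, adjusted p = 0.138). The other C-type gamma genes, PCDHGC4 and PCDHGC5, overlapped between all doses and passed no test. PCDHGC4 had 1586, 5463 and 1694 FPKM in control libraries, 4248, 2996 and 1019 at 5 µM and 3851, 1313 and 2141 at 10 µM, with a log2 difference of -0.06 ± 0.74 (SE, adjusted p = 0.956) between 5 µM and 0 µM. PCDHGC5 had 1635, 2916 and 3515 FPKM in control libraries, 2170.1, 2265 and 3538 at 5 µM and 2293, 651 and 1848 at 10 µM, with a log2 difference of 0.02 ± 0.43 (SE, adjusted p = 0.978).

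In the beta cluster, PCDHB15 (chr5:140624963-140628933, GRCh37), the last gene of the cluster, had the highest level at 5 µM and 10 µM. Its FPKM was 2498, 1861 and 370.4 in control libraries, 11939.7, 8278 and 11293 at 5 µM and 7001, 5888 and 6539 at 10 µM. Its groups did not overlap in any of the 3 comparisons, and the 10 µM libraries lay between the control and 5 µM libraries. The log2 difference between 5 µM and 0 µM was 3.11 ± 0.74 (SE, adjusted p = 0.0184). Control replicate 3 stood apart at 370.4 FPKM, or 3.91 estimated fragments against 12.3 and 13.9 in the others, and without it the log2 difference was 2.27 and still called. At 5 µM the estimates were 142, 93.5 and 144 fragments. Without 5 µM replicate 1, 2 or 3 the adjusted p was 0.0737, 0.0546 or 0.0733.

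The other 3 called beta members were listed at 0 in control cells. PCDHB4 (chr5:140501400-140505205) was listed at 0 in all 3 control libraries and had 878, 147 and 316 FPKM at 5 µM and 88.0, 288 and 353 at 10 µM. It was above 0 in 6 of 6 treated libraries, with a log2 difference between 5 µM and 0 µM of 8.43 ± 1.19 (SE, adjusted p = 0.00247) on the log2(FPKM + 1) scale. At 5 µM this rested on 9.97, 1.58 and 3.84 estimated fragments. PCDHB6 was listed at 0 in all 3 control libraries and had 33.0, 249.9 and 38.3 FPKM at 5 µM and 0, 11.2 and 201 at 10 µM. PCDHB7 was listed at 0 in all 3 control libraries too and had 187, 381 and 4.70 FPKM at 5 µM and 0, 217 and 10.7 at 10 µM. Their log2 differences between 5 µM and 0 µM were 6.12 ± 1.38 (SE, adjusted p = 0.0152) for PCDHB6 and 6.21 ± 1.89 (SE, adjusted p = 0.0423) for PCDHB7. At 5 µM they came from 0.315, 2.27 and 0.391 fragments for PCDHB6 and 2.09, 4.04 and 0.0561 for PCDHB7. The PCDHB6 call was lost without control replicate 1 or 2, and the PCDHB7 call without any 1 control library or without 5 µM replicate 1 or 2. With all 9 libraries in one fit, PCDHB7 had an adjusted p of 0.0734 and was not called. No fold is given for a gene listed at 0 in one group, since its log2 difference is set by the pseudocount.

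PCDHB14 and PCDHB10, the next beta genes by level, had differences below 0 between 5 µM and 0 µM that did not pass the test. PCDHB14 had 2077, 1768 and 3131 FPKM in control libraries, 2630.1, 858 and 2398 at 5 µM and 934, 1532 and 1942 at 10 µM. Its log2 difference was -0.36 ± 0.56 (SE, adjusted p = 0.613) between 5 µM and 0 µM. PCDHB10 had 500.1, 994 and 761 FPKM in control libraries, 353, 650.2 and 447 at 5 µM and 1180.4, 1468 and 1857 at 10 µM. Its log2 difference was -0.63 ± 0.57 (SE, adjusted p = 0.414) between 5 µM and 0 µM. The 10 µM libraries were above all others, with a log2 difference of 1.66 ± 0.55 (SE, adjusted p = 0.129) from 5 µM. PCDHB1, the first gene of the cluster, was listed at 0 in all 9 libraries, and it was the only member to be so. Its promoter window has 6 CpG, as many as that of PCDHB15.

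Most alpha values were under 0.5 fragments. PCDHA10, the highest of them in the mean over all 9 libraries and in control cells, had 655, 2010.0 and 982 FPKM in control libraries, 450.1, 718 and 402 at 5 µM and under 1, 1726 and 1271 at 10 µM, and all 3 groups overlapped. Its log2 difference was -1.10 ± 0.62 (SE, adjusted p = 0.198) between 5 µM and 0 µM. PCDHAC2, a C-type gene with a higher mean than PCDHA10 at 5 µM and 10 µM, had 491, 414 and 146 FPKM in control libraries, 259.6, 1095 and 969 at 5 µM and 2163, 1550.3 and 367 at 10 µM, with a log2 difference of 1.07 ± 0.86 (SE, adjusted p = 0.363). These 2 genes were the only alpha members above 1 FPKM in all 3 control libraries.

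The 3 alpha members called higher at 5 µM were each under 1 FPKM in every control library. PCDHAC1, the other C-type gene (chr5:140305884-140391932), had 262, 268 and 516 FPKM at 5 µM and under 1, under 1 and 624 at 10 µM, with a log2 difference of 8.38 ± 1.06 (SE, adjusted p = 0.00168) between 5 µM and 0 µM. PCDHA12 had 414, 145 and 258 FPKM at 5 µM and was under 1 in all 10 µM libraries, with a log2 difference of 7.97 ± 1.11 (SE, adjusted p = 0.00237). PCDHA3 had 288, 295 and 131 FPKM at 5 µM and was likewise under 1 in all 10 µM libraries, with a log2 difference of 7.81 ± 1.11 (SE, adjusted p = 0.00253). The 5 µM values stand for few fragments, namely 4.72, 4.58 and 9.93 for PCDHAC1, 6.80, 2.27 and 4.54 for PCDHA12 and 4.73, 4.60 and 2.30 for PCDHA3. With a pseudocount of 1000 FPKM, PCDHAC1, PCDHA12, PCDHA3 and 3 of the beta members (PCDHB4, PCDHB6 and PCDHB7) were no longer called, and neither was PCDHGB4.

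**Figure D4:**
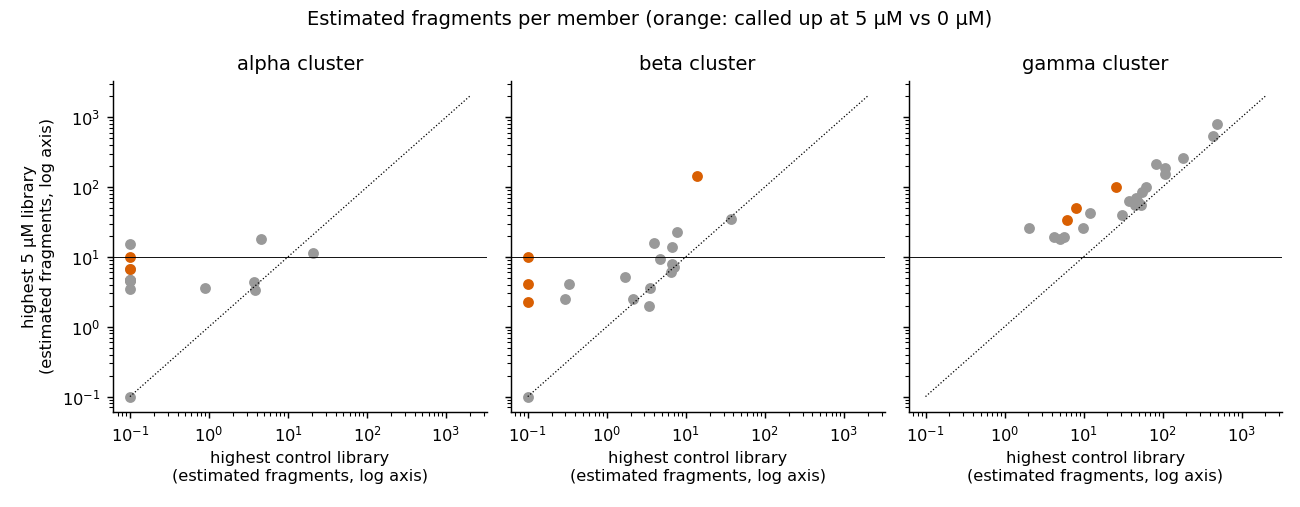
Highest estimated fragments of each member in a control library (x axis) against a 5 µM library (y axis), on log axes with values under 0.1 drawn at 0.1, and a line at 10 fragments. Fragment numbers are not scaled for library depth. Members called higher at 5 µM are orange: PCDHB15 and the PCDHGB members lie above 10 fragments at 5 µM, while the alpha members and PCDHB4, PCDHB6 and PCDHB7 lie below it.

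When genes needed 10 or more estimated fragments in some library of the pair, a rule added after the values were seen, the comparison of 5 µM with 0 µM kept 31 members (3 alpha, 5 beta and 23 gamma). Of these, 7 were called higher, against 15.7% of all 14041 genes left. They were PCDHB15, PCDHGB4, PCDHGB5 and PCDHGB6 as before and PCDHB2, PCDHGA7 and PCDHGA12, named here after their values were seen. Since PCDHB2, PCDHGB4 and PCDHGB5 reach 10 fragments at 5 µM and not in control libraries, the filter itself favoured them, and the count is a description. The filter also depends on library depth, for which fragment numbers are not scaled. In the comparison with every gene above 10 FPKM, PCDHB2, PCDHGA7 and PCDHGA12 had adjusted p-values of 0.0739, 0.0678 and 0.0581 and were not called. PCDHGA12 had 3152, 5636 and 8339.6 FPKM in control libraries, 10940.4, 13577 and 10512 at 5 µM and 12276, 8709.6 and 5927 at 10 µM.

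Between 10 µM and 5 µM most members had differences below 0, as did most genes, and few members passed the test. Of 56 members tested, none was called higher, against 0.129% of 20085 genes, and 2 were called lower (3.57%), against 4.82% of all genes. The log2 difference was below 0 in 47 members and above 0 in 9, where 24.4% of all genes tested were above 0. The median was -0.85 over the members beside -0.31 over all genes, and 7 members had an unadjusted p under 0.05. The groups did not overlap in 6 members that were lower and in 2 that were higher, PCDHB10 and PCDHB19P (25.2% and 4.36% of all genes). The members called lower were PCDHA12, at -7.97 ± 1.46 (SE, adjusted p = 0.0235), and PCDHA3, at -7.81 ± 1.47 (SE, adjusted p = 0.0261), which were the members under 1 FPKM in all libraries at 10 µM described above. Both genes passed the filter only through 5 µM libraries, so they could only be below 0. Both calls were lost without any 1 of the 5 µM libraries, and PCDHA3 also without 10 µM replicate 3. With the minimum of 10 fragments neither was tested, since both stay under it, and none of the 33 members left was called lower, against 6.07% of the genes left. PCDHB15 differed by -0.68 ± 0.27 (SE, adjusted p = 0.174) without overlap and PCDHGC3 by -0.44 ± 0.23 (SE, adjusted p = 0.265). PCDHAC1 differed by -5.28 ± 2.57 (SE, adjusted p = 0.244), and by -8.38 with an adjusted p of 0.0326 without 10 µM replicate 3, the only 10 µM library in which it was above 1 FPKM.

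Between 10 µM and 0 µM, 50 members were tested and 1, PCDHB4, was called higher (2.0%, against 4.07% of 18928 genes). Its log2 difference was 7.71 ± 1.75 (SE, adjusted p = 0.0306), and the call was lost without any 1 control library or without 10 µM replicate 1 or 3. PCDHB4 was listed at 0 in every control library, so it passed the filter only through 10 µM libraries and could only be above 0. None was called lower, against 3.40% of all genes, and 5 members had an unadjusted p under 0.05. The groups did not overlap in 9 members that were higher (14.4% of all genes) and 3 that were lower (26.7% of all genes). The median was 0.49 beside -0.15 over all genes, with 31 members above 0 and 19 below, where 42.1% of all genes tested were above 0. PCDHB15 had a log2 difference of 2.43 ± 0.75 (SE, adjusted p = 0.0657). It was called higher with a pseudocount of 1000 (adjusted p = 0.0252), with all 9 libraries in one fit (0.0234) and with median-of-ratios scaling (0.0466). With the minimum of 10 fragments, PCDHB15 and PCDHGA7 were called higher (2 of 29 members, against 5.69% of the genes left). The 3 comparisons share their libraries, so their counts are not independent of each other.

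**Figure D5:**
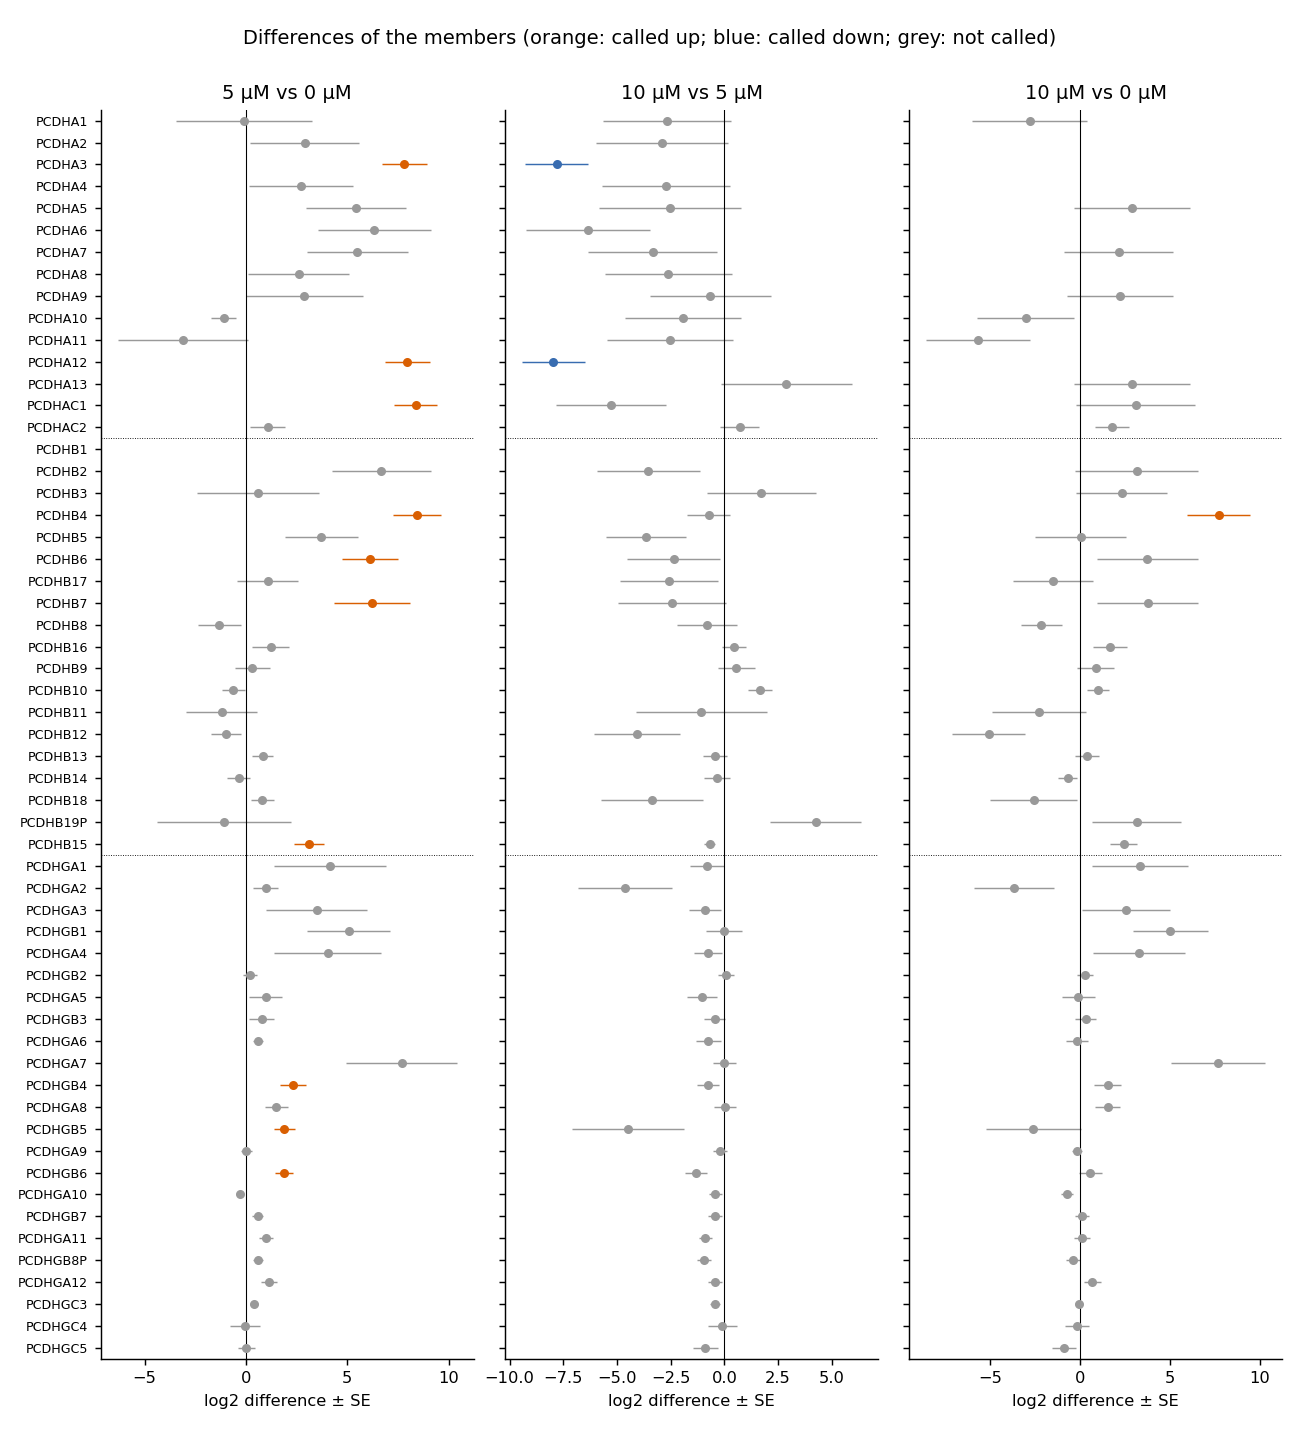
log2 difference ± SE of each tested member between 5 µM and 0 µM, 10 µM and 5 µM, and 10 µM and 0 µM (limma on log2(FPKM + 1)), with members called higher in orange, lower in blue and not called in grey. Most members lie above 0 in the first comparison and below 0 in the second, where 57.1% and 24.4% of all genes tested were above 0. The calls with the largest differences are members near 0 FPKM in control cells.

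Genes around and upstream of the clusters were compared in the same fits. Of 24 measured regulators of the clusters (CTCF, cohesin, the DNA methyltransferases, TET enzymes and others), DNMT3B, a de novo DNA methyltransferase, was the only one called at 5 µM. Its FPKM was 4117 ± 1665 at 0 µM, 10034 ± 1356 at 5 µM and 7559 ± 1742 at 10 µM (SD, n = 3), with a log2 difference of 1.35 ± 0.34 (SE, adjusted p = 0.0221), which had an adjusted p over 0.05 without control replicate 2 or any 1 of the 5 µM libraries. CTCF, which binds the variable exons' promoters, had 318173 ± 15825, 251970.0 ± 24257 and 232633 ± 61048 FPKM (SD, n = 3). Its log2 difference between 5 µM and 0 µM was -0.34 ± 0.09 (SE, adjusted p = 0.0264), under the fold threshold. The median of this list was -0.19 at 5 µM, beside 0.14 over all genes, and none of the 24 was called between 10 µM and 5 µM or between 10 µM and 0 µM.

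Neighbouring genes on chromosome 5 gave few calls. Of 23 measured genes inside or beside the clusters, 1 was called higher at 5 µM, ARAP3, a regulator of small GTPases 140.4 kb from the gamma cluster, with a log2 difference of 1.56 ± 0.48 (SE, adjusted p = 0.0452). That call was lost without any 1 library other than control replicate 1. The median of the list was -0.04, and none was called in the other comparisons. The nearest neighbour, DIAPH1, an actin nucleator 2.04 kb beyond the gamma cluster, had a log2 difference of 0.10 ± 0.09 (SE, adjusted p = 0.416). Next on that side were HDAC3 at -0.23 ± 0.06 (SE, adjusted p = 0.0294) and RELL2 at 0.50 ± 0.11 (SE, adjusted p = 0.0141). On the alpha side, ZMAT2 differed by 0.09 ± 0.09 (SE, adjusted p = 0.441), HARS2 by -0.29 ± 0.10 (SE, adjusted p = 0.0568) and WDR55 by -0.00429 (adjusted p = 0.974). Between the beta and gamma clusters lie TAF7, a subunit of the general transcription factor TFIID, with a difference of -0.17 ± 0.08 (SE, adjusted p = 0.140), and SLC25A2, a mitochondrial ornithine carrier, with -0.74 ± 0.45 (SE, adjusted p = 0.234).

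Other cadherins were compared by family. Of 15 non-clustered protocadherins and relatives tested at 5 µM, 1 was called higher, CDHR2, a protocadherin of the intestinal brush border. Its FPKM was 10948 ± 766 at 0 µM, 100365 ± 12415 at 5 µM and 49859.7 ± 10108 at 10 µM (SD, n = 3), with a log2 difference of 3.19 ± 0.13 (SE, adjusted p = 1.08e-04). It was also called lower at 10 µM than at 5 µM, at -1.02 ± 0.20 (SE, adjusted p = 0.0272), and higher than at 0 µM, at 2.17 ± 0.22 (SE, adjusted p = 0.00398). The call between 10 µM and 5 µM was lost without any 1 of the 5 µM libraries, without 10 µM replicate 3, and with median-of-ratios scaling, where the log2 difference was -0.82. PCDH1 lies on chromosome 5 past the gamma cluster and had a log2 difference of -0.996 (adjusted p = 4.04e-04), short of the fold threshold. Of 23 classic and desmosomal cadherins tested, 5 were called higher at 5 µM, led by CDH16, the kidney cadherin (12.44, adjusted p = 3.08e-04), CDH19 (8.51, adjusted p = 0.00166) and CDH5, the endothelial cadherin (7.78, adjusted p = 0.00271). These 3 were listed at 0 in all control libraries, so the size of their log2 differences is set by the pseudocount, and CDH19 (0.47) and CDH5 (0.31) were not called with a pseudocount of 1000. CDH19 and CDH15 were called lower at 10 µM than at 5 µM, the first call being lost without any 1 of the 5 µM libraries or with a pseudocount of 1000. The CDH15 call was lost without 5 µM replicate 3, and with all 9 libraries in one fit its adjusted p was 0.544. CDH16 and CDH24 were called higher at 10 µM than at 0 µM, CDH24 not without control replicate 2. The list medians at 5 µM were 1.46 and 1.93, and 1.08 for the clustered members. Of 17 partners of the cytoplasmic domains tested, RET, a receptor tyrosine kinase (10.47, adjusted p = 6.34e-04), and WASF3, an actin regulator (8.42, adjusted p = 0.00214), were called higher at 5 µM, with a median of -0.19 over the list. Both were listed at 0 in all control libraries, so these sizes too are set by the pseudocount, and with a pseudocount of 1000 WASF3 (0.47) was not called. WASF3 was called lower at 10 µM than at 5 µM, but not without 5 µM replicate 1 or 3, and RET higher at 10 µM than at 0 µM, but not without 10 µM replicate 1 or 3.

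Markers of other cell types moved in the same libraries. Markers of neurons, a cell type known for its use of clustered protocadherins, summed to 18895 to 24640 FPKM in control libraries, 73846 to 84076 at 5 µM and 42769 to 49358 at 10 µM. Of the 10 neuron markers, 8 were tested at 5 µM and 4 were called higher (SYT1, SYP, RBFOX3 and MAP2). SNAP25 and NEFL were at 0 in all 9 libraries, and STMN2 and NEFM were above 0 in 1 and 2 of the 5 µM libraries and at 0 elsewhere. GAP43 had 1787 ± 1140.2 FPKM at 0 µM and 1349 ± 596 at 5 µM, and ELAVL4 418 ± 362 and 127 ± 220.5 (SD, n = 3), neither being called. Fibroblast markers summed to 23011 to 32355, 82825 to 89610.0 and 45354 to 52496 FPKM, with 4 of 7 called higher at 5 µM. Leukocyte markers summed to 122085 to 128554, 654664 to 693853 and 192055 to 344819 FPKM, with 2 of 4 called higher (CD3E and CD68). Of the 11 colon epithelium markers, 2 were called higher at 5 µM (CDX1 and CEACAM5) and 3 lower (KRT19, KRT8 and KRT18). The part of any of these in the protocadherin values was not tested.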

How the data were processed

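RNA from 9 HT-29 cultures (0, 5 and 10 µM 5-Aza, 3 each) was sequenced as paired ends. Before deposit, the authors cleaned the reads (FASTX-Toolkit), mapped them with TopHat on hg19, and took FPKM per gene from Cufflinks. The paper's methods name an Ensembl reference, but its release and how reads of shared exons were divided are not given in the sources used here, and no counts were used. Repeated symbols were summed.

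Values were compared as log2(FPKM + 1), with a gene kept where 1 replicate reached 10 FPKM, by limma 3.58.1 (lmFit, eBayes with trend) in R 4.3.3 with Benjamini-Hochberg adjustment over all genes tested, each pair of doses fitted alone. By the estimate, 1 fragment is worth 106 to 273 FPKM on a 3000-nt transcript and 61.7 to 159 FPKM on a 5000-nt transcript. Differences of genes at or near 0 in some library are therefore set largely by the pseudocount and can exceed the ratio of the means. Values under 1 FPKM were treated as 0 when groups were checked for overlap. Labels call the replicates biological, but p-values measure only the spread between these cultures.

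Fragments were estimated from the steps of low values at 12 microRNA genes of 110 nt (46 values, tolerance 0.01) and extended by length with an offset of 222.8 nt. Of 244 genes with clean steps, 150 lay within 15% of this relation, and 18033 genes received an estimate. No interval is given, since true counts are unknown.

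Positions came from a GENCODE annotation that had been lifted over (converted) to GRCh37, and promoter windows from RefSeq (GRCh38.p14). No other coordinates were converted. The members and gene lists were chosen with earlier results of these data known. The members named were the 3 highest in each cluster, the C-type genes, in each comparison and cluster up to 3 called members with the largest differences and no overlap between groups, and any listed at 0 in all 9 libraries. From the other lists, up to 3 called genes in each direction and the 3 closest flanking genes with a position on either side were named. HARS had no position under that symbol and was not ranked by distance. Alternatives were a pseudocount of 0.1 or 1000, other filters and scalings, all 9 libraries in one fit, a replicate block, limma's treat against a fold of 2, leaving out each library, and a minimum of 10 estimated fragments and a beta sum without PCDHB15, both added after the values were seen. Scripts used Python 3.11.15, pandas 2.3.3 and numpy 2.4.6, and the fits were tested on simulated data. Changes were simulated only in genes of high level, so that test does not cover genes as low as the called members in control cells.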

Additional observations from a re-analysis of the deposited data

How the results depend on the processing

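Of 57 members, 10 were called higher between 5 µM and 0 µM, and this count was 4 with a pseudocount of 1000, 4 with treat, 6 with the replicate block and 7 to 11 without 1 library. With treat, PCDHAC1, PCDHA12, PCDHA3 and PCDHB4 stayed called, and all of these were lost with a pseudocount of 1000. PCDHB15, PCDHGB5 and PCDHGB6 stayed called with that pseudocount but not with treat (adjusted p = 0.148, 0.451 and 0.343). None of the 10 was called under both. The count called lower at 10 µM than at 5 µM, 2, was 0 with a pseudocount of 1000, the replicate block, treat or the fragment minimum, and 0 to 2 without 1 library. The count called higher at 10 µM than at 0 µM, 1, was 2 with a pseudocount of 1000, median-of-ratios scaling or the fragment minimum, 3 with all 9 libraries in one fit, 0 with the replicate block or treat, and 0 to 1 without 1 library. The count called lower there, 0, was 0 to 1, the 1 being PCDHB12 without 10 µM replicate 2. The ratio of cluster sums between 10 µM and 0 µM was 1.98 in beta and 1.12 in gamma with median-of-ratios scaling, and the gamma ratio was 0.895 to 1.05 without 1 library, above 1 without 10 µM replicate 3. The cause was not tested. Without PCDHB15 the beta ratio was 1.20 between 5 µM and 0 µM, 1.15 between 10 µM and 0 µM and 0.958 between 10 µM and 5 µM. The replicate block also ended the calls of PCDHB6, PCDHB7, PCDHGB4 and PCDHGB5 (5 µM and 0 µM) and of CDHR2 (10 µM and 5 µM, adjusted p = 0.0607). Same-numbered libraries of different doses had correlations of -0.07 to 0.09 (9 pairs) and differently numbered ones -0.16 to 0.10 (18 pairs) over 15278 genes, so the numbers were not taken to pair the cultures.

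Directions that turned were all of genes not called in that comparison. With a pseudocount of 1000 the log2 difference was 0.28 for PCDHA10 (10 µM and 5 µM) and 0.0345 for PCDHGB5 (10 µM and 0 µM). With median-of-ratios scaling it was 0.12 for PCDHGC4 (10 µM and 5 µM), and 0.17 for PCDHGC3 and 0.0948 for PCDHGC4 (10 µM and 0 µM). Without 1 library, the differences between 5 µM and 0 µM ran from -0.65 to 0.15 for PCDHB14, -0.49 to 0.54 for PCDHGC4 and -0.31 to 0.25 for PCDHGC5. Between 10 µM and 5 µM they ran from -3.75 to 1.55 for PCDHA10 and -0.69 to 0.34 for PCDHGC4. Between 10 µM and 0 µM they ran from -4.85 to 0.44 for PCDHA10, -4.76 to 0.75 for PCDHGB5, -0.0832 to 0.45 for PCDHGB7, -0.17 to 0.0721 for PCDHGC3 and -0.55 to 0.43 for PCDHGC4. Of 1181 values of single genes under an alternative, 1052 kept direction and side of the threshold, 101 kept direction but were no longer called, 5 became called and 23 turned. The 1052 include genes called in neither fit. They also include alternatives that cannot change a member's difference, such as the handling of repeated symbols. The 1052 are therefore no measure of how stable the calls were. Depth limits the alpha cluster and the low beta members most, whose called members held under 10 estimated fragments in each 5 µM library.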
